A study of Mus musculus with 32 samples.

Results

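Solute carriers are membrane proteins that move nutrients, ions, metals, vitamins and metabolites across the plasma membrane and the membranes of organelles, without the ATP-splitting motor of the ABC pumps. The genes described here were all mouse genes whose symbol is Slc, a family number, the letter a and a member number, measured by a probe set annotated to that gene alone. Slc10a1, the bile acid uptake carrier, and Slc3a2, a chaperone subunit of amino acid exchangers, were left out of the set. The array carried 136 such genes on 167 probe sets. With 1 probe set per gene (the one with the highest mean over the 32 arrays), 115 genes were kept because they exceeded their array's 30th percentile on 3 or more arrays. They make up 115 of the 6786 genes that were tested through a probe set of their own. Of the 115, 96 were above that percentile on all 32 arrays. Just outside were Slc30a1 and Slc39a6, each above it on 1 array, with mean log2 values of 4.03 and 4.01. Just inside were Slc1a5 and Slc4a8 on 4 arrays (means 4.49 and 4.54) and Slc12a2 on 5 (mean 4.49), and 19 further carriers were above it on no array.

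RNA of mouse liver was hybridised to Affymetrix arrays, 1 array per liver sample. All animals were C57BL/6 males of 3 months, and all were homozygous for a floxed Rps6 gene, which encodes a protein of the small ribosomal subunit, S6. Cre plus animals also carried the Mx-Cre transgene, whose promoter responds to interferon, so that injected polyinosinic-polycytidylic acid leads to deletion of Rps6, whereas Cre minus animals lacked the transgene. Livers were sampled at 0, 20, 30 and 40 h after partial hepatectomy, with 4 samples in each group except Cre plus at 30 h (3) and Cre plus at 40 h (5), in batches named PHX2 and PHX3 that each held samples of all 8 groups. PHX3 holds only 1 Cre plus sample at 30 h, liver A, and PHX2 only 1 Cre minus sample at 40 h, liver D. How long before surgery the injection was made, and whether the controls received it, was not given in the sources used here, and no group is named as sham-operated. Mx-Cre acts in any cell that answers interferon, so the deletion is not limited to hepatocytes. The labels do not say that each sample is a separate mouse, so p-values measure only the spread from sample to sample.

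In the liver, carriers set what hepatocytes can take from portal blood and what reaches their mitochondria. Amino acid carriers feed protein synthesis and the urea cycle, the facilitative glucose carrier of hepatocytes passes glucose in both directions, fatty acid transport proteins couple uptake to acyl-CoA formation, and carriers of the Slc25 family link the mitochondrial matrix to the cytosol. After removal of part of the liver the remaining hepatocytes keep these metabolic duties while they enter the cell cycle.

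The Rps6 probe set, which is annotated to Rps6 and the pseudogene Rps6-ps4, separated the genotypes: its log2 value ranged from 10.99 to 11.82 (median 11.39) in the 16 Cre minus samples and from 6.24 to 7.69 (median 7.06) in the 16 Cre plus samples. The mean of 8 hepatocyte markers was 11.45 to 11.87 in every sample, against array medians of 5.88 to 5.99. On 3 arrays the mean correlation with the other arrays of the group was under 0.95 (lowest 0.943): Cre minus 30 h liver C, Cre plus 30 h liver A and Cre plus 40 h liver D. For genotype, and for the difference between genotypes, each call lost or gained without these 3 arrays is given with its values. Of the carriers' time calls, those lost are given with their values and those gained by number. Batch moved 29 of the 115 carriers in limma's fit, 8 higher and 21 lower in PHX3, beside 2494 of all 9249 probe sets tested. Batch was a term of every comparison.

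Across the carriers, many more carriers passed a comparison of times than one of genotypes, and most passed neither. Of the 115, 29 passed limma's test (adjusted p under 0.05 over all 9249 probe sets tested) in at least 1 of the 13 comparisons, and 86 in none. By time after surgery 12 carriers rose and 17 fell in one or both genotypes. Over all probe sets, time comparisons mostly gave more calls too, 3.14% to 9.89%, against 0.0649% to 5.35% in genotype comparisons. The share of all probe sets that passed in at least 1 comparison was not counted. Between genotypes 3 carriers passed: the zinc carrier Slc39a9 was lower in Cre plus livers at 30 h, and the mitochondrial carriers Slc25a28 and Slc25a47 were higher in Cre plus livers at 40 h.

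In Cre minus livers, 4 carriers rose and 5 fell at 20 h against 0 h (7.83% of the carriers, against 7.37% of all probe sets). At 30 h none rose and 4 fell (3.48%, against 3.14%), and at 40 h none rose and 5 fell (4.35%, against 4.77%). The counts in Cre minus livers were thus near the share called over the whole array. In Cre plus livers, 5 rose and 9 fell at 20 h (12.2%, against 9.07%), 7 rose and 11 fell at 30 h (15.7%, against 9.89%), and 5 rose and 11 fell at 40 h (13.9%, against 9.66%). The median difference of the carriers lay between -0.05 and 0.00 in all 6 time comparisons, and that of all probe sets between -0.03 and 0.01. Every time comparison of a genotype shares its 0 h livers with the others of that genotype.

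In both genotypes 8 carriers passed, 1 that rose (the phosphate carrier Slc20a1) and 7 that fell, and no carrier rose in one genotype and fell in the other. The differences of the 2 genotypes, which share no sample, had a correlation over the 115 carriers of 0.89 at 20 h, 0.78 at 30 h and 0.64 at 40 h, with the same sign in 89, 89 and 83 carriers. These are descriptions across genes of one set of arrays, and genes are not independent replicates. A pass in Cre plus alone does not show a difference between the genotypes. The test of that difference, the genotype difference at each time minus that at 0 h, called 0 of 115 carriers at 20, 30 and 40 h in limma's fit (against 0%, 0.0108% and 0.584% of all probe sets), with 2, 4 and 3 carriers at an unadjusted p under 0.05. With array weights, which count noisier arrays less, limma called 20 carriers for this difference at 30 h (17.4%, against 17.2% of all probe sets) and 1 at 40 h (0.87%, against 2%).

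**Figure D1:**
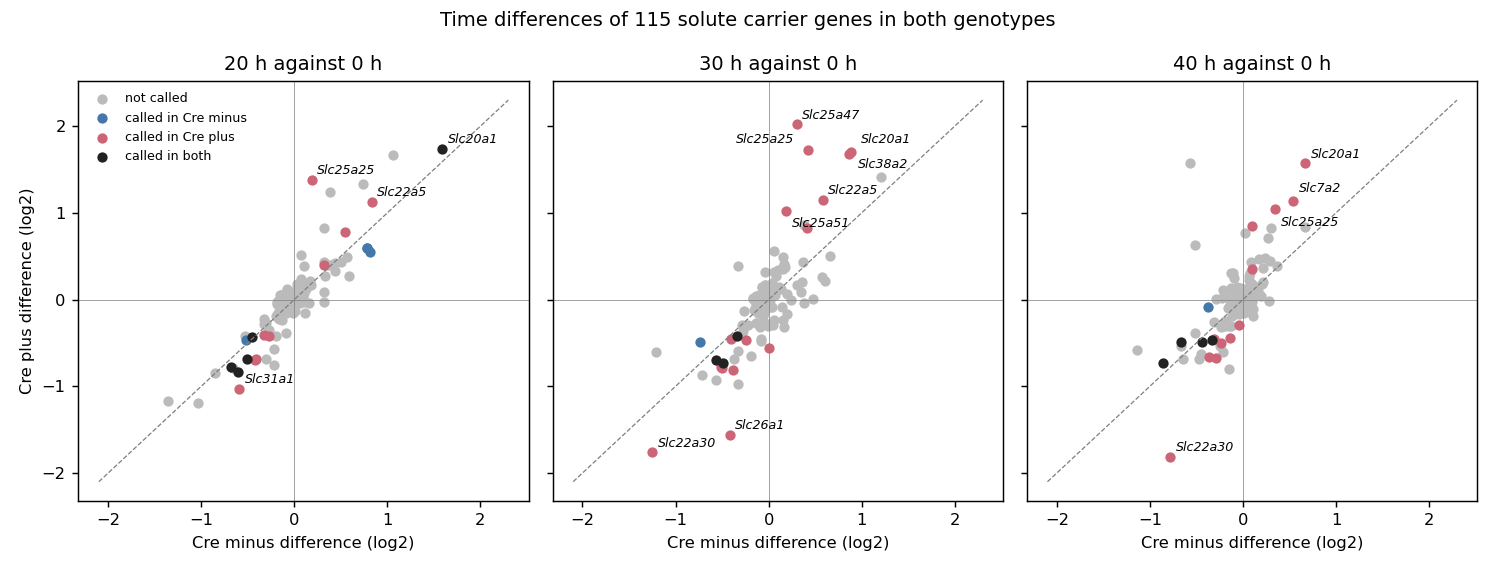
Each point is 1 of the 115 carriers; the horizontal axis is its log2 difference from 0 h in Cre minus livers and the vertical axis that in Cre plus livers, at 20, 30 and 40 h, with colours for the carriers that passed limma's test in one genotype or in both. Most points lie near the dashed line of equal differences at 20 h (correlation 0.89) and spread further from it at 40 h (0.64); Slc25a25 and Slc25a47 at 30 h lie far above it.

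Genotype was compared at each time directly. At 0 h, 0 of 115 carriers passed limma's test (0.0649% of all probe sets), with 1 at an unadjusted p under 0.05, and at 20 h 0 passed (0.292%), with 6 at an unadjusted p under 0.05. At 30 h 1 passed (0.87%, against 0.281%) and at 40 h 2 passed (1.74%, against 5.35%). The median carrier differed by -0.02, 0.02, -0.02 and -0.02 at 0, 20, 30 and 40 h. Without the 3 arrays of low correlation, limma called 6 carriers higher and 4 lower at 30 h (10.3% of all probe sets) and 4 higher and 2 lower at 40 h (7.16%). At 30 h that fit keeps Cre plus livers B and C, both of PHX2, against Cre minus livers A and B of PHX3 and D of PHX2. Its genotype values at 30 h, and their difference from 0 h, thus lean on Cre minus liver D and on the batch term fitted over all groups. The test of the difference from 0 h in the same fit called 3 carriers at 30 h, Slc25a47 by 3.11, Slc25a51 by 1.21 and Slc39a9 by -0.68 (limma adjusted p = 0.0273, 0.0194 and 0.0323), and Slc37a4 by 1.38 at 40 h (limma adjusted p = 0.0497). These were 2.61% of the carriers at 30 h and 0.87% at 40 h, near the 1.99% and 0.811% of all probe sets. With array weights 31 carriers passed for genotype at 30 h (27%, against 26.3%) and 10 at 40 h (8.7%, against 9.31%).

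The carriers gained at 30 h without the 3 arrays were Slc25a47, Slc25a51 and Slc29a1, described with their classes, and 6 others. Slc10a6, a carrier of sulfated steroids, differed by 1.31, the carnitine carrier Slc22a5 by 1.05, the vitamin C carrier Slc23a2 by 0.81 and Slc27a5 by 0.64 (limma adjusted p = 0.0235, 0.0324, 0.0274 and 0.0138). With all arrays these differences were 0.04, 0.47, 0.29 and 0.23. The potassium-chloride cotransporter Slc12a7 differed by -0.68 and the phosphate and urate carrier Slc17a1 by -0.59 (limma adjusted p = 0.0384 and 0.0346), against -0.25 and -0.29 with all arrays. At 30 h the Slc10a6 values were 6.2, 5.67, 9.38 and 5.88 in Cre minus and 6.09, 7.72 and 6.98 in Cre plus livers. Cre minus liver C, one of the arrays left out, was the highest of all these. At 40 h Slc37a4, Slc11a1, the mitochondrial glutathione carrier Slc25a39 and the zinc carrier Slc30a3 were gained. Slc25a39 differed by 0.30 and Slc30a3 by -0.24 (limma adjusted p = 0.0132 and 0.0287), against 0.19 and -0.21 with all arrays. Over time, 5 carriers gained a call in Cre minus livers at 20 h without the 3 arrays, and in Cre plus livers 13, 8 and 4 at 20, 30 and 40 h. Calls were lost by 2 carriers in Cre minus livers at 30 h, and by 4 and 1 in Cre plus livers at 30 and 40 h. Called in that fit were 12.2% of the carriers in Cre minus livers at 20 h, against 11.2% of all probe sets. In Cre plus livers it called 23.5%, 19.1% and 16.5% at 20, 30 and 40 h, against 14.4%, 14% and 10.9%.

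**Figure D2:**
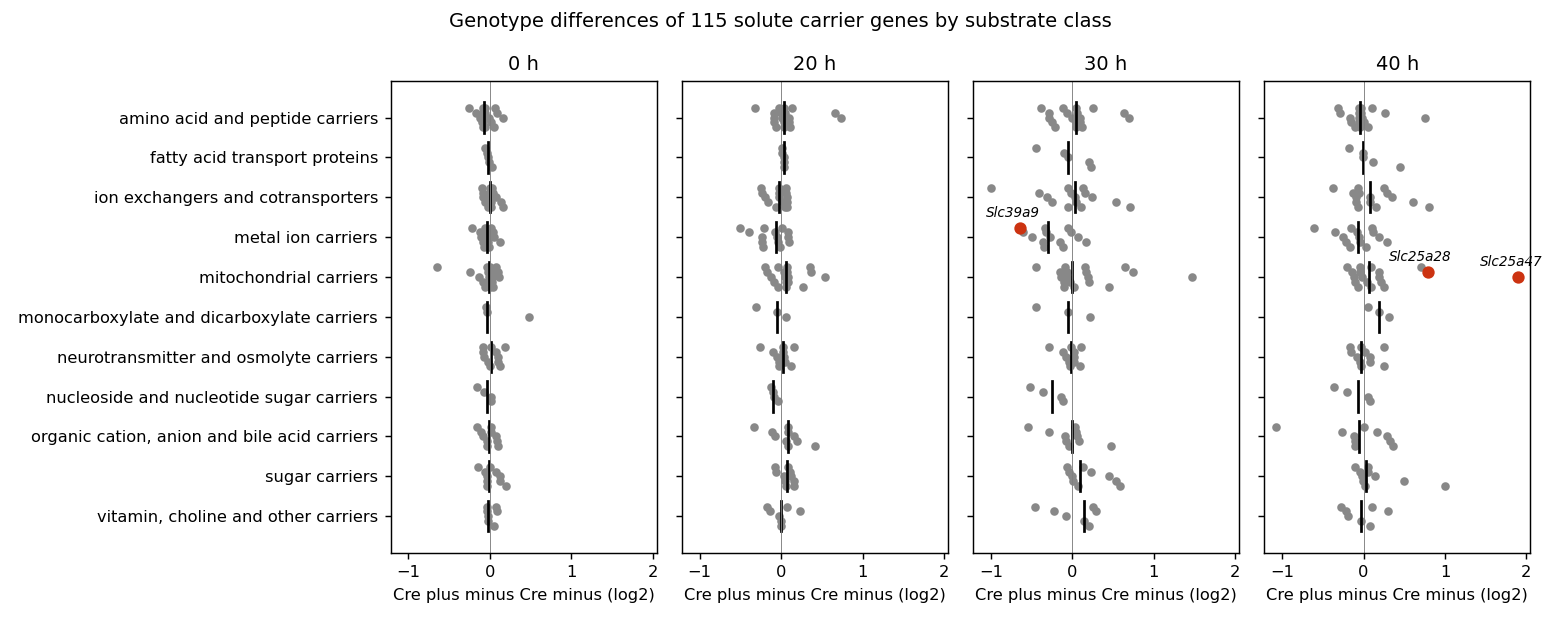
Each point is the log2 difference, Cre plus minus Cre minus, of 1 carrier at 0, 20, 30 or 40 h, arranged by substrate class; black bars mark class medians and large red points the carriers that passed limma's test. The points lie close to 0 at 0 h and spread at 30 and 40 h, where Slc39a9 (-0.64), Slc25a28 (0.79) and Slc25a47 (1.90) are marked.

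Of 18 mitochondrial carriers, Slc25a25, Slc25a28, Slc25a47 and Slc25a51 rose after surgery in Cre plus livers. At 20 h 2 rose and 1 fell, at 30 h 4 rose and 1 fell, and at 40 h 2 rose and 1 fell, where limma called 9.07%, 9.89% and 9.66% of all probe sets. In Cre minus livers 1 rose and 1 fell at 20 h, and only Slc25a1 fell at 30 h and at 40 h. The shares of all probe sets called there were 7.37%, 3.14% and 4.77%. The median difference of the 18 in Cre plus livers was 0.09 at 20 h and 0.15 at 30 h, against 0.08 and 0.11 for Cre minus livers. The difference between the genotypes from 0 h was called by limma for none of the 18 with all arrays. Slc25a47 is a liver-enriched carrier of the inner mitochondrial membrane. Its log2 values in Cre minus livers were 9.91, 9.70, 10.37 and 9.88 at 0 h and 8.65, 9.98, 8.89 and 9.46 at 40 h. Those of Cre plus livers were 10, 9.64, 9.32 and 9.94 at 0 h and 9.99, 12.16, 10.15, 12.30 and 11.56 at 40 h. At 40 h all 5 Cre plus livers were above all 4 Cre minus livers, by a narrow margin for liver A. The genotype difference at 40 h was 1.90 ± 0.52 (SE, 3.72-fold; limma adjusted p = 0.0311), with 2.46 within PHX2 and 1.60 within PHX3. Within PHX2 the Cre minus side at 40 h is liver D alone. The call was lost on leaving out 6 of the 9 livers in turn (limma adjusted p up to 0.11, without Cre minus liver A).

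At 30 h the Slc25a47 values were 9.47, 9.86, 12.36 and 9.39 in Cre minus and 10.43, 12.36 and 12.74 in Cre plus livers. The groups overlapped through Cre minus liver C (12.36), one of the 3 arrays of low correlation. The rise in Cre plus livers from 0 to 30 h was 2.02 ± 0.60 (SE, 4.05-fold; limma adjusted p = 0.032), 2.92 within PHX2 and 0.61 within PHX3, which holds only liver A at that time. The genotype difference at 30 h was 1.47 with all arrays (limma adjusted p = 0.329) and 2.87 without the 3 arrays (limma adjusted p = 0.00314). The rise was 2.74 without those arrays (limma adjusted p = 0.00124), and its call ended on leaving out 4 of 7 livers in turn, with a limma adjusted p of up to 0.138 without Cre plus 30 h liver C.

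Slc25a28 encodes mitoferrin 2, which brings iron into mitochondria. Cre minus livers were at 6.50, 6.55, 6.58 and 6.70 at 0 h and at 6.76, 6.68, 6.55 and 6.66 at 40 h. Cre plus livers were at 6.63, 6.62, 6.53 and 6.68 at 0 h and at 7.34, 7.95, 7.22, 7.42 and 7.37 at 40 h. The 40 h groups did not overlap, and the Cre minus livers at 40 h lay in or next to the range of their 0 h livers. The genotype difference at 40 h was 0.79 ± 0.17 (SE, 1.73-fold; limma adjusted p = 0.00568), 0.74 within PHX2 (Cre minus liver D alone) and 0.84 within PHX3, and kept its call on leaving out each of the 9 livers. From 0 h, Slc25a28 rose in Cre plus livers by 0.78 at 20 h, 0.82 at 30 h and 0.85 at 40 h (SE 0.18, 0.20 and 0.17; limma adjusted p = 0.0084, 0.00979 and 0.00288; 0.0517 at 30 h without liver A). At 20 h the Cre minus livers were split by batch, 6.68 and 6.73 in PHX3 and 7.49 and 7.60 in PHX2, while the Cre plus livers ranged from 7.19 to 7.61.

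Slc25a25, the calcium-regulated ATP-Mg/phosphate carrier, had the smallest adjusted p of any carrier in Cre plus livers at 30 h. Its resting values in Cre plus livers were 9.72, 9.77, 9.01 and 9.32. After surgery they were 10.34, 10.57, 11.34 and 11.07 (20 h), 11.08, 10.91 and 11.64 (30 h), then 10.66, 9.99, 10.23, 11.05 and 10.43 (40 h). All livers after surgery were above all 4 at 0 h. The rises were 1.38 ± 0.26, 1.72 ± 0.28 and 1.04 ± 0.25 (SE; limma adjusted p = 0.00221, 4.89e-04 and 0.0088), with the 40 h call lost without 0 h liver C (limma adjusted p = 0.0507). They were larger within PHX2 (2.04, 2.11 and 1.58) than within PHX3 (0.71, 1.33 and 0.55). Cre minus livers ranged from 9.38 to 10.71 at 0 h and from 10.06 to 11.05 afterwards, which overlapped. The genotype difference at 20 h minus that at 0 h was 1.19 ± 0.37 (SE; limma adjusted p = 1, unadjusted 0.00346), but 2.28 within PHX2 and 0.09 within PHX3. At 0 h the genotype difference of Slc25a25 was -0.65 (limma adjusted p = 1), with -1.24 within PHX2 and -0.07 within PHX3.

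Slc25a51 carries NAD+ into mitochondria. In Cre plus livers it was at 6.83, 6.91, 7.02 and 6.97 at 0 h and at 7.36, 8.24 and 8.43 at 30 h, and in Cre minus livers at 30 h it was at 7.11, 6.85, 7.64 and 7.23. The 30 h Cre plus livers were above all 0 h livers, and only Cre minus liver C reached their range. The rise in Cre plus livers was 1.02 ± 0.20 (SE, 2.02-fold; limma adjusted p = 0.00234), and a further probe set of the gene gave 0.98 (limma adjusted p = 0.00846). The genotype difference at 30 h was 0.74 (limma adjusted p = 0.098) and 1.13 without the 3 arrays of low correlation (limma adjusted p = 0.0019).

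Among the other mitochondrial carriers, Slc25a15, the ornithine carrier of the urea cycle, rose in Cre minus livers at 20 h, from 10.04 to 10.45 at 0 h to 10.91 to 11.28, without overlap (0.78 ± 0.22, SE; limma adjusted p = 0.0301; 6 of 8 leave-one-out fits lost it). Cre plus livers differed at 20 h by 0.60 (limma adjusted p = 0.0866). Slc25a1 exports citrate to the cytosol, where it supplies fatty acid and sterol synthesis. It fell in both genotypes at all 3 times, by 0.45, 0.34 and 0.33 in Cre minus livers and by 0.43, 0.42 and 0.47 in Cre plus livers (SE 0.09 or 0.10; limma adjusted p from 0.00176 to 0.0446). The Cre minus difference at 30 h was -0.29 without the 3 arrays of low correlation (limma adjusted p = 0.149), and leave-one-out fits lost the Cre minus calls at 30 and 40 h in 6 and 5 of 8. Its Cre minus values were 9.90, 9.81, 9.92 and 9.68 at 0 h and 9.53, 9.37, 9.29 and 9.31 at 20 h, which did not overlap. A further Slc25a1 probe set moved the same way in all 6 comparisons and passed in 4. The carnitine and acylcarnitine carrier Slc25a20 passed no test, with differences from 0 h between 0.08 and 0.57.

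Promoters of 3 of the 4 mitochondrial carriers that rose in Cre plus livers at 30 h, Slc25a25, Slc25a28 and Slc25a47, are shown so that their sequences can be compared. That of Slc25a51 is not shown, so the matches below describe a chosen part of the 4. Each is the 250 bases before the gene's start in RefSeq (build GRCm38.p6), written 5′ to 3′ on the gene's strand. Slc25a25 has 3 starts in the table and the first was used. Capitals mark matches, on either strand, of the CCAAT box and of the motif TGACG; on the other strand the former reads ATTGG and the letters of the latter read CGTCA. Slc25a25 lies on the minus strand with its window at chr2:32451471-32451720, Slc25a28 on the minus strand at chr19:43674882-43675131, and Slc25a47 on the plus strand at chr12:108850879-108851128.
Slc25a25: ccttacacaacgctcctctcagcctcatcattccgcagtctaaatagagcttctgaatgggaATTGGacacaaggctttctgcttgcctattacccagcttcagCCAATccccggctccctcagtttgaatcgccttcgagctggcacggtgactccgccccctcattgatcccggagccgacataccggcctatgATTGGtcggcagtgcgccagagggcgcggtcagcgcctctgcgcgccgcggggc
Slc25a28: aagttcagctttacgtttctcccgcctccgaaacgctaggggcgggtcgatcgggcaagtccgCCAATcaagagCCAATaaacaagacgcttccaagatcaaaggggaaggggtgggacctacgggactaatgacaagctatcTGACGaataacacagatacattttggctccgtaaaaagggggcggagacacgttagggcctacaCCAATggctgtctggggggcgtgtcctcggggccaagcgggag
Slc25a47: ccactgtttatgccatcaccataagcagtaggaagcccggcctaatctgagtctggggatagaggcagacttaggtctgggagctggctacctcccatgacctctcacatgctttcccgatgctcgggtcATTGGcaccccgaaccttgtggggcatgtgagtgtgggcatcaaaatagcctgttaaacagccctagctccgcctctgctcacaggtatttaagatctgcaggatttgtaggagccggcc
All 3 windows hold CCAAT: 3 matches in Slc25a25 (188, 146 and 54 bases before the start), 3 in Slc25a28 (187, 176 and 43) and 1 in Slc25a47 (120). Slc25a28 also holds TGACG, 107 bases before its start. Of the 115 carriers, 93 matched a promoter in the table, and CCAAT was in 27 of these (29%), against 36.1% of the promoters of tested genes and 34.5% of all 27025 promoters. TGACG was in 26 (28%), against 26.4% of the 5414 promoters of tested genes and 17.9% of all promoters. The 8-base cyclic AMP element TGACGTCA, which contains TGACG on both strands, was in 0 of the 93 carrier promoters, 2.48% of the promoters of tested genes and 1.62% of all. The amino acid response motif TGATGNAA was in 4 (4.3%, against 2.09% of the promoters of tested genes and 3.53% of all), and TATAAA in 3 (3.23%, against 8.16% and 13%). These matches are a description of the windows.

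**Figure D3:**
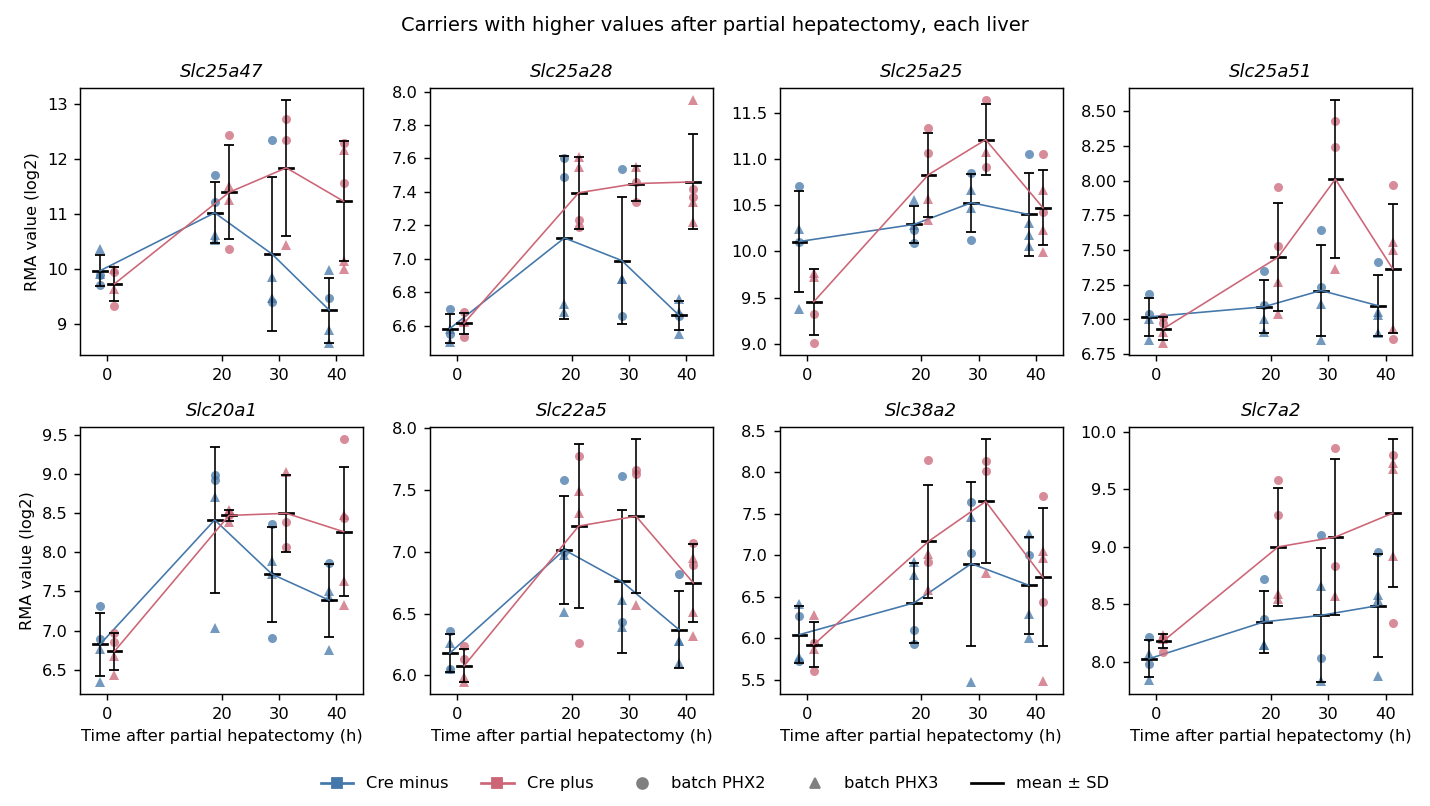
RMA log2 value of 8 carriers in each liver against time after partial hepatectomy in hours; circles are batch PHX2, triangles PHX3, blue Cre minus and red Cre plus, and black bars give the mean and SD of each group. Slc25a28 stays at 7.22 or above in the 5 Cre plus livers at 40 h while the 4 Cre minus livers are at 6.76 or below, and Slc25a47 has 1 Cre minus liver at 12.36 at 30 h.

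Among 15 ion exchangers and cotransporters the phosphate carrier Slc20a1 rose most. Slc20a1 (PiT-1) brings phosphate into cells with sodium. Its values in Cre minus livers were 6.34, 7.31, 6.76 and 6.89 at 0 h and 7.03, 8.71, 8.99 and 8.92 at 20 h. Those of Cre plus livers were 6.43, 6.68, 6.86 and 6.97 at 0 h and 8.38, 8.54, 8.47 and 8.49 at 20 h. Without overlap in Cre plus livers, the groups overlapped in Cre minus livers through 20 h liver A alone. The rise at 20 h came to 1.59 ± 0.37 in Cre minus livers and to 1.74 ± 0.37 in Cre plus livers (SE, 3.01-fold and 3.34-fold; limma adjusted p = 0.00972 and 0.00428), and both kept their call on leaving out each of 8 livers. It was positive within both batches in each genotype (1.85 and 1.32; 1.57 and 1.91).

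At 30 and 40 h Slc20a1 was higher than at 0 h by 1.70 and 1.57 in Cre plus livers (limma adjusted p = 0.00862 and 0.00548), where no liver overlapped with 0 h. Cre minus livers differed from 0 h by 0.89 and 0.67 (limma adjusted p = 0.205 and 0.379). The genotype difference was 0.71 at 30 h and 0.81 at 40 h (limma adjusted p = 0.513 and 0.211). Without the 3 arrays of low correlation the Cre plus rise at 30 h was 1.24 (limma adjusted p = 0.0598), and without liver A alone the limma adjusted p was 0.0831.

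The Slc20a1 promoter is shown because its window holds the 6-base E-box CACGTG, marked in capitals with CCAAT and CGTCA, at 2 places, 175 and 22 bases before the start. It lies on the plus strand at chr2:129198523-129198772 (RefSeq, GRCm38.p6; 2 starts in the table, the first used).
Slc20a1: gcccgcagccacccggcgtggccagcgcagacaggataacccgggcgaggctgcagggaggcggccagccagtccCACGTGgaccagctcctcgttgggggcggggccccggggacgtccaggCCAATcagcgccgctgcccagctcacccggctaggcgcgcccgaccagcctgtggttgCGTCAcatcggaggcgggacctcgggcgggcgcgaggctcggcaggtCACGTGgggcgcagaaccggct
CACGTG reads the same on both strands. It was in 8 of the 93 carrier promoters (8.6%), in 8.64% of the promoters of tested genes and in 6.05% of all promoters.

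Of 3 potassium-chloride cotransporters 1 rose, 1 fell and Slc12a5 (KCC2) passed no test, with differences from 0 h between -0.16 and 0.09. Single time comparisons called 3.14% to 9.89% of all probe sets. Slc12a4 (KCC1) rose in Cre plus livers by 0.40 at 20 h and 0.35 at 40 h (SE 0.11 and 0.10; limma adjusted p = 0.024 and 0.0329), and each call was lost in 4 leave-one-out fits, of 8 and of 9. Slc12a7 (KCC4) fell in Cre plus livers, from 7.72, 7.73, 7.75 and 7.55 at 0 h to 6.78, 6.97, 6.78 and 7.44 at 20 h and 7.29, 6.59 and 6.76 at 30 h, without overlap. Its differences were -0.70 ± 0.21 and -0.78 ± 0.22 (SE; limma adjusted p = 0.0335 and 0.0283), and the calls ended in 7 of 8 and 4 of 7 leave-one-out fits. Slc12a7 in Cre minus livers was at 7.01 to 7.40 at 20 h against 7.53 to 7.85 at 0 h, and did not pass. The sulfate and oxalate exchanger Slc26a1 fell in Cre plus livers at 30 h by 1.56 ± 0.42 (SE, 2.95-fold; limma adjusted p = 0.0207), to 5.84, 5.41 and 5.70 from between 6.24 and 8.59, and 3 of 7 leave-one-out fits lost it. The sodium-proton exchanger Slc9a8 fell in Cre minus livers at 40 h by 0.38 (limma adjusted p = 0.0399), but by 0.01 within PHX2 (liver D alone at 40 h) and 0.55 within PHX3, and 7 of 8 leave-one-out fits lost it. The bicarbonate carrier Slc4a4, the sodium-potassium-chloride cotransporter Slc12a2 and the phosphate carrier Slc34a2 passed no test. Without the 3 arrays of low correlation Slc12a2 passed in Cre plus livers at 20 h (0.40, limma adjusted p = 0.0439). Its mean at 0 h was 4.33 in both genotypes, below the lowest 30th percentile of any array (4.67). Slc12a2 was kept through only 5 arrays above that percentile, so its place in the set is not independent of a rise from 0 h.

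Of 18 amino acid and peptide carriers, 2 rose and 1 fell over the time comparisons. In single time comparisons limma called 3.14% to 9.89% of all probe sets. Slc38a2 (SNAT2), a sodium-coupled carrier of small neutral amino acids, was in Cre plus livers at 5.87, 6.28, 5.61 and 5.94 at 0 h and at 6.79, 8.02 and 8.14 at 30 h. The groups did not overlap. Its rise was 1.68 ± 0.47 (SE, 3.20-fold; limma adjusted p = 0.0244), 2.31 within PHX2 and 0.72 within PHX3, and 4 of 7 leave-one-out fits lost the call. Cre minus livers at 30 h were at 7.46, 5.47, 7.64 and 7.03, a difference of 0.86 from 0 h (limma adjusted p = 0.339), with liver B below all 0 h livers.

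Slc7a2 (CAT2) carries arginine and other cationic amino acids. Its Cre plus values were 8.23, 8.20, 8.21 and 8.09 at 0 h, and 9.68, 8.92, 9.73, 9.80 and 8.34 at 40 h. All 5 livers at 40 h were above the 0 h livers, 1 of them narrowly. The rise was 1.14 ± 0.29 (SE, 2.21-fold; limma adjusted p = 0.012), 0.92 within PHX2 and 1.23 within PHX3, and kept its call on leaving out each of 9 livers. The difference in Cre minus livers was 0.54 (limma adjusted p = 0.39) and the genotype difference at 40 h 0.76 (limma adjusted p = 0.139).

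Slc66a2, a member of the PQ-loop family, fell in Cre plus livers at all 3 times, by 0.41, 0.73 and 0.49 (SE 0.13, 0.14 and 0.12; limma adjusted p = 0.0387, 0.00158 and 0.0105), and in Cre minus livers at 30 and 40 h, by 0.49 and 0.44 (SE 0.13 each; limma adjusted p = 0.0297 and 0.0398). At 30 h in Cre plus livers it was at 8.43, 8.63 and 8.37, below all 0 h livers (9.05 to 9.45). That fall kept its call on leaving out each of 7 livers, while the fall in Cre minus livers at 30 h was -0.41 without the 3 arrays of low correlation (limma adjusted p = 0.0884). The large neutral amino acid carrier Slc7a5, the hepatocyte carrier Slc38a4, the glutamine carrier Slc1a5 and the cystine carrier subunit Slc3a1 passed no test. Slc7a5 differed from 0 h by -0.13 to 0.15 and Slc38a4 by -0.10 to 0.32. Slc3a2, the shared subunit that the set leaves out, rose in Cre plus livers by 1.32 at 20 h and 1.21 at 30 h (limma adjusted p = 0.0117 and 0.0296).

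Of 10 carriers of organic cations, anions and bile acids, Slc22a5 rose, Slc10a3 rose in Cre minus livers, and Slc22a18 and Slc22a30 fell. The time comparisons each called 3.14% to 9.89% of all probe sets. Slc22a5 (OCTN2) takes up carnitine, which fatty acids need to enter mitochondria. In Cre plus livers it was at 5.95, 5.99, 6.24 and 6.13 at 0 h, at 7.49, 7.31, 7.77 and 6.26 at 20 h, and at 6.57, 7.63 and 7.66 at 30 h. No liver at 20 or 30 h reached down to the 0 h range, although 20 h liver D came close to it. The rises were 1.13 ± 0.27 and 1.15 ± 0.29 (SE, 2.19-fold and 2.22-fold; limma adjusted p = 0.00861 and 0.0127), lost in 1 of 8 and 2 of 7 leave-one-out fits. Cre minus livers at 20 h were at 6.97, 6.51, 7.0 and 7.58, all above their 0 h range of 6.05 to 6.36, with a difference of 0.83 (limma adjusted p = 0.054; 0.0214 without the 3 arrays of low correlation).

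Slc22a18, an organic cation carrier-like gene of an imprinted region, fell in both genotypes. Its Cre plus values were 9.34, 9.46, 9.54 and 9.34 at 0 h, then 8.46 to 8.96 at 20 h, 8.46 to 8.99 at 30 h and 8.30 to 8.91 at 40 h. None of the livers after surgery reached the 0 h range. It fell by 0.68, 0.70 and 0.67 (SE 0.13, 0.14 and 0.12; limma adjusted p = 0.00233, 0.0031 and 0.00157), and these calls were kept on leaving out each liver. In Cre minus livers it fell by 0.51 at 20 h and 0.57 at 30 h (SE 0.13 each; limma adjusted p = 0.0176 and 0.0187), each lost in 4 of 8 leave-one-out fits.

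Slc22a30 belongs to a group of closely related rodent organic anion carrier genes, and whether its probes also read those relatives was not tested. It was at 9.14, 9.01, 8.17 and 8.83 in Cre plus livers at 0 h, at 5.57, 7.76 and 7.81 at 30 h, and at 7.87, 4.93, 7.92, 7.47 and 6.62 at 40 h. The lowest livers were 30 h liver A and 40 h liver B, and neither time overlapped with 0 h. Its falls were -1.76 ± 0.56 and -1.81 ± 0.49 (SE, 3.39-fold and 3.51-fold; limma adjusted p = 0.0434 and 0.0199). Without the 3 arrays of low correlation the 30 h difference was -0.93 (limma adjusted p = 0.335) and that at 40 h was -1.99 (limma adjusted p = 0.00755). Its Cre minus differences at 20, 30 and 40 h were negative and did not pass. Slc10a3, an orphan relative of the bile acid carriers, rose in Cre minus livers at 20 h by 0.78 ± 0.24 (SE; limma adjusted p = 0.0413), 1.30 within PHX2 and 0.26 within PHX3, and 6 of 8 leave-one-out fits lost it.

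Of 5 fatty acid transport proteins, 1 fell and none rose, where single time comparisons called 3.14% to 9.89% of all probe sets. Slc27a5 is the bile acid-CoA ligase and a fatty acid transport protein of hepatocytes. In Cre minus livers it was at 10.89, 10.83, 11.01 and 10.74 at 0 h, at 10.46, 10.17, 10.31 and 10.43 at 20 h, at 10.09, 9.81, 10.59 and 10.03 at 30 h, and at 10.36, 9.76, 10.04 and 9.74 at 40 h. No liver after surgery reached the 0 h range. The differences were -0.52 ± 0.16, -0.74 ± 0.16 and -0.86 ± 0.16 (SE; limma adjusted p = 0.0452, 0.012 and 0.00126), and the 40 h fall, 1.82-fold, kept its call on leaving out each liver, unlike those at 20 h (7 of 8 fits lost) and 30 h (3 of 8). It fell in Cre plus livers at 40 h by 0.73 ± 0.15 (SE, 1.66-fold; limma adjusted p = 0.00374) and differed by -0.47 and -0.49 at 20 and 30 h (limma adjusted p = 0.0643 and 0.0733; the former 0.0107 without the 3 arrays of low correlation). Slc27a2, the other main fatty acid transport protein of liver, differed from 0 h by -0.23 to 0.16 and passed no test.

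Among 7 carriers of vitamins, choline and other solutes, Slc44a1 and Slc46a1 fell in both genotypes and none rose. Of all probe sets, 3.14% to 9.89% were called in single time comparisons. Slc46a1 is the proton-coupled folate transporter. It was at 8.26, 8.03, 8.02 and 8.0 in Cre minus livers at 0 h and at 7.72, 7.31, 7.25 and 7.31 at 20 h, and at 8.14, 8.0, 7.96 and 8.11 against 6.99, 7.14, 7.56 and 7.40 in Cre plus livers. Neither genotype overlapped between the times. The differences at 20 h were -0.68 ± 0.15 and -0.78 ± 0.15 (SE; limma adjusted p = 0.00794 and 0.00245) and kept their calls on leaving out each liver. It fell in Cre plus livers by 0.81 at 30 h and 0.50 at 40 h (limma adjusted p = 0.00306 and 0.0285), the latter call lost without the 3 arrays of low correlation (limma adjusted p = 0.0543). It did not pass in Cre minus livers at 30 or 40 h.

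Slc44a1 is the choline transporter-like protein that supplies choline for phosphatidylcholine. Its Cre plus values were 7.56, 7.38, 7.52 and 7.11 at 0 h, then 6.38 to 6.76 at 20 h, 6.44 to 6.67 at 30 h and 6.51 to 6.86 at 40 h, with no overlap. Its differences in Cre plus livers were -0.84, -0.79 and -0.66 (SE 0.16, 0.17 and 0.15; limma adjusted p = 0.00221, 0.00563 and 0.00705), and all 3 kept their calls on leaving out each liver. In Cre minus livers it fell by 0.60 ± 0.16 at 20 h (SE; limma adjusted p = 0.0213), where livers A and B (7.01 and 6.83) lay within the 0 h range of 6.73 to 7.84, and 3 of 8 leave-one-out fits lost it.

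**Figure D4:**
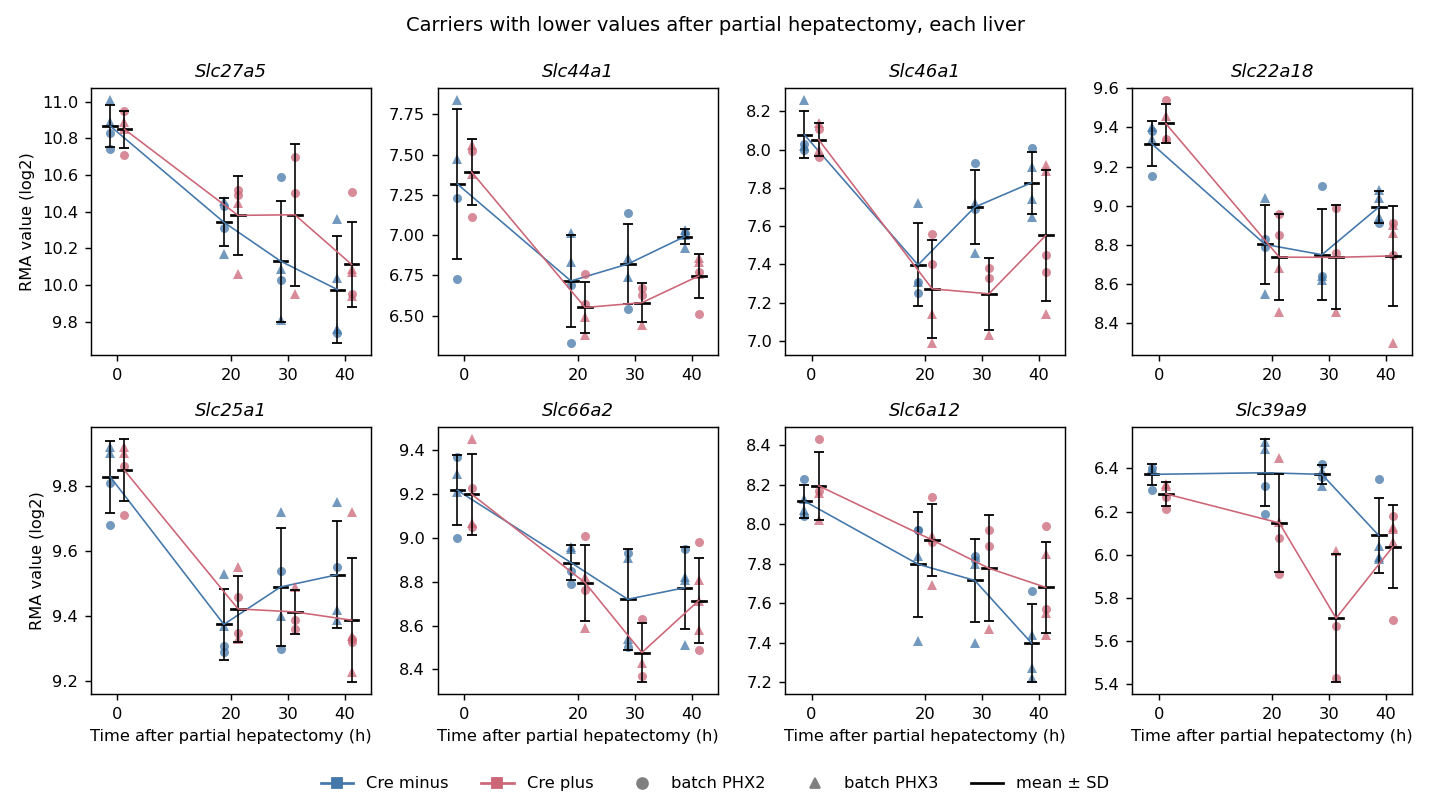
RMA log2 value of 8 carriers in each liver against time after partial hepatectomy in hours, with circles for batch PHX2, triangles for PHX3, blue for Cre minus, red for Cre plus, and black bars for the mean and SD of each group. Slc27a5 falls in both genotypes, and Slc39a9 stays between 6.32 and 6.42 in the 4 Cre minus livers at 30 h while the 3 Cre plus livers are at 6.02 or below.

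Of 14 metal ion carriers none rose, and Slc39a9 was the one carrier with a genotype call at 30 h. Limma called 0.281% of all probe sets for genotype at 30 h, and 3.14% to 9.89% in time comparisons. Slc39a9 (ZIP9) moves zinc into the cytosol. At 30 h it was at 6.39, 6.32, 6.42 and 6.36 in Cre minus livers and at 6.02, 5.67 and 5.43 in Cre plus livers, and at 0 h the Cre plus livers were at 6.33, 6.32, 6.27 and 6.21. The Cre plus livers at 30 h were below all livers of both comparisons. The genotype difference was -0.64 ± 0.12 (SE, 1.56-fold; limma adjusted p = 0.0181) and the Cre plus difference from 0 h -0.56 ± 0.12 (SE; limma adjusted p = 0.00485). The genotype difference was -0.84 within PHX2 and -0.33 within PHX3, and -0.77 without the 3 arrays of low correlation. Its call ended in 4 of 7 leave-one-out fits (limma adjusted p up to 0.109, without Cre plus liver C). At 40 h the genotypes overlapped again, at 5.98 to 6.35 and 5.70 to 6.18.

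The copper importer Slc31a1 (CTR1) fell in Cre plus livers at 20 h, from 9.42, 9.54, 9.51 and 9.32 to 7.89, 8.66, 8.64 and 8.49, without overlap. The fall was -1.03 ± 0.32 (SE, 2.04-fold; limma adjusted p = 0.0413), a further probe set gave -0.70 (limma adjusted p = 0.0498), and 6 of 8 leave-one-out fits lost the call. Cre minus livers at 20 h were at 9.72 and 9.24 in PHX3 and at 8.10 and 8.20 in PHX2. Slc39a8 (ZIP8), a carrier of zinc, iron and manganese, fell in Cre plus livers from 5.67, 5.68, 5.66 and 5.60 at 0 h to 4.81, 5.03, 4.96 and 5.07 at 20 h. These groups did not overlap, and the difference was -0.69 ± 0.14 (SE, 1.61-fold; limma adjusted p = 0.00373), kept on leaving out each liver; at 40 h it was -0.44 (limma adjusted p = 0.0354), lost in 6 of 9 leave-one-out fits. The iron importer Slc11a2 passed no test, with differences from 0 h between -0.16 and 0.02.

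Slc11a1 (NRAMP1) is a metal carrier of macrophage phagosomes. It fell in Cre plus livers at 40 h, from 6.94, 6.51, 6.55 and 6.52 at 0 h to 6.23, 6.06, 5.97, 6.45 and 6.18, without overlap (-0.45 ± 0.12, SE, 1.36-fold; limma adjusted p = 0.0211; 0.129 without 0 h liver A). Against Cre minus livers it differed by -0.51 at 20 h and -0.35 at 40 h (limma adjusted p = 0.098 and 0.0994). Without the 3 arrays of low correlation the 40 h difference was -0.41 (limma adjusted p = 0.0398), and with array weights -0.46 (limma adjusted p = 0.0304). Kupffer cell and macrophage markers moved with it. Of 10 markers tested, limma called 5 lower in Cre plus than in Cre minus livers at 20 h, then 2 at 30 h and 6 at 40 h (none at 0 h). Of all probe sets it called 0.292%, 0.281% and 5.35% for genotype at 20, 30 and 40 h. None was higher, and their mean log2 value was 6.59 to 7.26 in Cre plus livers at 40 h against 7.36 to 7.97 in Cre minus livers. From 0 to 40 h in Cre plus livers 5 of the 10 fell, where limma called 9.66% of all probe sets. Markers of the other non-hepatocyte cell types are not described here, so whether the fall is particular to macrophage markers is not shown. RMA values have no zero, so no marker can be called absent. In RNA of whole liver, fewer cells of a type and less RNA per cell cannot be told apart, and the part of the macrophage markers in the Slc11a1 difference was not tested.

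Of 10 sugar carriers only Slc50a1 (SWEET1) passed, in Cre plus livers, where it fell by 0.42 at 20 h and 0.47 at 30 h (SE 0.13 and 0.14; limma adjusted p = 0.0326 and 0.027). The groups overlapped, and the 30 h difference was -0.31 without the 3 arrays of low correlation (limma adjusted p = 0.191). With all arrays limma called 9.07% and 9.89% of all probe sets in Cre plus livers at 20 and 30 h. Slc2a2 (GLUT2), the main glucose carrier of hepatocytes, was at 9.58, 9.86, 9.74 and 9.41 in Cre minus livers at 0 h and at 8.30, 9.21, 7.91 and 8.33 at 30 h. The Cre minus livers at 30 h were all below the 0 h range, with a difference of -1.21 (limma adjusted p = 0.116), and in Cre plus livers the difference was -0.61 (limma adjusted p = 0.433). The spread between livers after surgery was wide: the 5 Cre plus livers at 40 h ran from 8.42 to 10.25.

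Slc37a4 moves glucose 6-phosphate into the endoplasmic reticulum, the step before glucose release. At 40 h it was at 9.28, 9.26, 9.39 and 9.42 in Cre minus livers and at 10.27, 11.06, 10.41, 8.87 and 10.59 in Cre plus livers. All but liver D of the Cre plus livers were above the Cre minus livers, and liver D is one of the 3 arrays of low correlation. The genotype difference was 1.0 with all arrays (limma adjusted p = 0.056) and 1.24 without the 3 arrays (limma adjusted p = 0.00151). The glucose carrier Slc2a1 (GLUT1) passed no test, with differences from 0 h between 0.10 and 0.49.

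Of 3 monocarboxylate and dicarboxylate carriers, Slc16a1 (MCT1), which passes lactate and pyruvate, rose in Cre minus livers at 20 h, from 4.20, 4.01, 4.09 and 3.98 to 4.92, 4.71, 4.98 and 4.92. These values lie below the array medians, where the signal is dim, and did not overlap (0.81 ± 0.21, SE, 1.76-fold; limma adjusted p = 0.0181; lost in 2 of 8 leave-one-out fits). The 0 h values were also below the lowest 30th percentile of any array (4.67), the level used as the filter. Slc16a1 was thus kept through other arrays, so its place in the set is not independent of a rise from 0 h. The Cre plus difference was 0.55 (limma adjusted p = 0.101; 0.0483 without the 3 arrays of low correlation). None of 4 carriers of nucleosides and nucleotide sugars passed. The nucleoside carrier Slc29a1 (ENT1) differed from 0 h by -0.47 to -0.66 in Cre minus and by -0.69 to -0.93 in Cre plus livers (limma adjusted p from 0.0537 to 0.446), and without the 3 arrays of low correlation it passed at 20 h in both genotypes and at 30 h in Cre plus livers (limma adjusted p = 0.0441, 0.0132 and 0.00174). Slc29a1 was then also lower in Cre plus than in Cre minus livers at 30 h, by -1.08 (limma adjusted p = 0.017).

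Of 11 carriers of neurotransmitters and osmolytes 2 fell and none rose, where single time comparisons called 3.14% to 9.89% of all probe sets. Slc6a12 takes up betaine and GABA. It was at 8.07, 8.23, 8.13 and 8.04 in Cre minus livers at 0 h and at 7.44, 7.22, 7.27 and 7.66 at 40 h, and at 8.02, 8.16, 8.43 and 8.17 against 7.55, 7.44, 7.85, 7.99 and 7.57 in Cre plus livers. Neither genotype overlapped. The falls were -0.66 ± 0.12 and -0.49 ± 0.11 (SE; limma adjusted p = 5.81e-04 and 0.00558), negative within both batches and kept on leaving out each liver. At 30 h it was lower by -0.46 in Cre plus livers (limma adjusted p = 0.0197; -0.36 and 0.0958 without the 3 arrays). The glycine carrier Slc6a9 (GLYT1) fell in Cre plus livers at 40 h by 0.29 (limma adjusted p = 0.0432), with overlapping groups and the call lost in 7 of 9 leave-one-out fits.

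Other transport genes were counted beside the carriers. Of 22 ABC transporter genes, limma called 1 higher and 1 lower in Cre plus livers at 40 h, where it called 5.35% of all probe sets, and none at 0, 20 or 30 h. Over time, 2 rose and 2 fell in Cre minus livers at 20 h, and in Cre plus livers 2 rose and 1 fell at 20 h, with 1 in each direction at 30 and at 40 h. The shares of all probe sets in these 4 comparisons were 7.37%, 9.07%, 9.89% and 9.66%. Of 5 aquaporins 1 fell, Aqp8 in Cre minus livers at 40 h (-1.81, limma adjusted p = 0.0463). Of 3 sodium pump subunits 1 rose, Atp1b1 in Cre plus livers at 30 h (0.89, limma adjusted p = 0.0069). Limma called 4.77% of all probe sets in the former comparison and 9.89% in the latter. The 1 organic anion transporting polypeptide gene that could be tested passed in none of the comparisons.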

How the data were processed

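The deposited table holds 1 log2 value per probe set and array for 12488 probe sets on 32 Affymetrix arrays (66 are controls). The authors made these log2 values with RMA, as the submitters' processing notes name it. Not given in the sources used here are its version and whether both batches went through it jointly. The log base was read from the values (2.30 to 14.12). GEO's platform annotation pairs 10833 probe sets with 1 gene, 396 with several and 1193 with none, and the last 2 kinds name no gene here. Symbols were updated through the RefSeq table, which 10817 probe sets matched.

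Probe sets above the 30th percentile of their array on 3 or more arrays (9249) entered limma 3.58.1 in R 4.3.3, with lmFit and eBayes over the 8 groups and the batch, 2-sided, and Benjamini-Hochberg adjustment over all 9249 within each comparison. The scripts were tested on simulated data. No value was dropped or imputed. Differences are of log2 values and understate the change of dim genes, levels of different probe sets were not compared, and the number of arrays limits the precision.

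The carriers and all lists were chosen with earlier results of these data known. Substrate classes follow the family number and not each member's own substrate, so a class can hold members that carry other solutes. Genes were named by size among those that passed (for time comparisons, with the same sign within both batches), plus a list of 36 core carriers, of which 29 are on the array and 26 were tested; the rest of the 29 called carriers, and those genes called only without the 3 arrays that the text names, were named after their values were seen. Leave-one-out fits dropped each liver of the groups compared in turn. The alternatives tried were other scaling, other filters, no batch term, the replicate letter as a block, array weights, a fit of only the groups compared, leaving out livers, single batches and other probe sets. The labels do not say whether same-lettered samples of different groups belong together. Over 105 such pairs the correlation of their deviations ranged from -0.63 to 0.55, with a median of -0.04, and 31 pairs were over 0.1. The letters were not used as pairs.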

Additional observations from a re-analysis of the deposited data

Results flagged for a closer look

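In the 40 named carriers, 280 groups of 4 or 5 livers were examined for a liver far from the others of its group, and 30 were found; chance alone flags about 1 in 20 groups. Each is given as its log2 value with the range of the other livers, and no cause was tested. At 0 h in Cre minus livers, Slc27a2 was 10.07 in liver D (10.29 to 10.30 in the others), Slc39a9 was 6.30 in liver D (6.39 to 6.40 in the others) and Slc3a1 was 7.90 in liver A (8.05 to 8.07 in the others). In the same group, Slc46a1 was 8.26 in liver A (8.0 to 8.03 in the others) and Slc7a5 was 7.34 in liver C (7.52 to 7.54 in the others). At 0 h in Cre plus livers, Slc10a3 was 6.76 in liver D (6.54 to 6.57 in the others), Slc11a1 was 6.94 in liver A (6.51 to 6.55 in the others) and Slc11a2 was 6.29 in liver A (6.56 to 6.58 in the others). In the same group, Slc12a7 was 7.55 in liver D (7.72 to 7.75 in the others). At 20 h in Cre minus livers, Slc20a1 was 7.03 in liver A (8.71 to 8.99 in the others), Slc22a30 was 8.39 in liver A (7.12 to 7.18 in the others) and Slc46a1 was 7.72 in liver A (7.25 to 7.31 in the others). At 20 h in Cre plus livers, Slc27a5 was 10.06 in liver A (10.45 to 10.52 in the others) and Slc4a1 was 4.85 in liver A (4.96 to 4.98 in the others). At 30 h in Cre minus livers, Slc10a3 was 7.38 in liver C (6.68 to 6.76 in the others), Slc11a1 was 6.81 in liver D (6.50 to 6.53 in the others) and Slc22a18 was 9.10 in liver D (8.62 to 8.64 in the others). In the same group, Slc25a47 was 12.36 in liver C (9.39 to 9.86 in the others), Slc38a4 was 11.52 in liver C (10.92 to 11.01 in the others) and Slc6a12 was 7.40 in liver B (7.80 to 7.84 in the others). At 40 h in Cre minus livers, Slc27a2 was 10.04 in liver B (10.43 to 10.50 in the others), Slc39a9 was 6.35 in liver D (5.98 to 6.04 in the others) and Slc4a1 was 5.33 in liver C (5.04 to 5.05 in the others). At 40 h in Cre plus livers, Slc22a18 was 8.30 in liver B (8.75 to 8.91 in the others), Slc25a1 was 9.72 in liver C (9.23 to 9.34 in the others) and Slc25a28 was 7.95 in liver B (7.22 to 7.42 in the others). In the same group, Slc27a5 was 10.51 in liver D (9.94 to 10.09 in the others), Slc2a1 was 6.34 in liver D (5.38 to 5.64 in the others) and Slc34a2 was 6.97 in liver B (5.98 to 6.21 in the others). In the same group, Slc39a9 was 5.70 in liver D (6.06 to 6.18 in the others). Liver C of Cre minus at 30 h, one of the 3 arrays of low correlation, is the high liver for Slc10a3, Slc25a47 and Slc38a4.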

How the results depend on the processing

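The counts of carriers that passed were 0, 0, 1 and 2 for genotype at 0, 20, 30 and 40 h, 9, 4 and 5 for time in Cre minus livers, 14, 18 and 16 in Cre plus livers, and 0 for the difference between genotypes from 0 h at each time. With array weights they were 31 for genotype at 30 h and 10 at 40 h, 35, 17 and 18 in Cre minus livers, 48 and 51 in Cre plus livers at 20 and 30 h, and 20 and 1 for the difference at 30 and 40 h. Array weights called 26.3% and 9.31% of all probe sets for genotype at 30 and 40 h, 22.7%, 10.1% and 21.2% in Cre minus livers, 28.8% and 38.8% in Cre plus livers at 20 and 30 h, and 17.2% and 2% for the difference. Without the 3 arrays of low correlation they were 10 for genotype at 30 h and 6 at 40 h, 14 and 2 in Cre minus livers at 20 and 30 h, 27 in Cre plus livers at 20 h, and 3 and 1 for the difference at 30 and 40 h. That fit called 10.3% and 7.16% of all probe sets for genotype at 30 and 40 h, and 11.2% and 3.15% in Cre minus livers. It called 14.4% in Cre plus livers at 20 h, and 1.99% and 0.811% for the difference. A fit of only the groups compared gave 0 for genotype at 30 h and 1 at 40 h, 22, 1 and 9 in Cre minus livers, and 24 and 6 in Cre plus livers at 20 and 40 h. Quantile normalization gave 3 in Cre minus livers at 40 h. With the replicate block the count was 0 for genotype at 30 h and 3 in Cre minus livers at 40 h (0.0649% and 4.48% of all probe sets). Elsewhere the replicate block count was at most 1.5 times away from the reported count. The labels do not say whether the letters pair samples. Leaving out 1 liver gave 0 to 1 for genotype at 20 h, 0 to 3 at 30 h and 1 to 5 at 40 h, 3 to 16, 0 to 6 and 2 to 6 in Cre minus livers, 8 to 21, 10 to 17 and 10 to 20 in Cre plus livers, and 0 for genotype at 0 h and for each difference from 0 h. The causes of these changes were not tested. Shares of all probe sets are not given for the groups compared only, quantile normalization and leaving out 1 liver. Whether the carriers and all probe sets changed alike in those fits is thus not shown. The carriers had 69 genotype and time calls, of which none changed sign under any alternative fit, 30 kept their call on leaving out each liver in turn and 7 were lost without the 3 arrays. Among the 45 calls named by the rule, 20 kept their call on leaving out each liver, and calls lost were 3 with arrays centred on their medians, 3 with quantile normalization, 4 without a filter, 0 with a filter at the array median (1 could not be tested), 5 without the batch term, 12 with the replicate block, 13 in the groups compared only, 4 without the 3 arrays and 0 with array weights. Within PHX2 alone 41 were lost and within PHX3 alone 25, with fewer arrays in each. Of the 115 carriers 33 had a mean below the lowest array median of 5.88, where dim signal limits what can be seen.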
